A study of Mus musculus with 8 samples.

Results

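The genes described here are 10 of the 31276 listed in the table: the cytokine genes Il33, Il1rn, Lif, Il6, Il11, Csf1, Csf2 and Tslp, the receptor gene Il1rl1 and the cyclooxygenase gene Ptgs2. They were chosen by function, as stromal cytokines and their partners, and also on measured values: results from these libraries, the difference between K36M or K36I lines and the rest among them, were known when the set was put together. That contrast is therefore given for all 10 genes as a description, without a test. RNA was sequenced from C3H10T1/2 cells, a mouse embryo-derived mesenchymal line that can enter several connective tissue fates. Each library came from cells stably expressing 1 FLAG-HA-tagged histone transgene: H3.3 K36M, H3.3 K36I, H3.1 K36M, H3.3 K36A, H3.3 K36L, H3.3 K36R, H3.1 K36R or wild-type H3.3 (WT). In K36M, methionine stands in place of lysine 36, and I, A, L and R stand for isoleucine, alanine, leucine and arginine. All 8 lines carry a tagged transgene, and the cells' own histone H3 genes are not described as altered in any of them. No transgene had a replicate library, and nothing in the labels says whether a line is 1 clone or a pool.

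IL-33, encoded by Il33, is an alarmin of the IL-1 family that is stored in the nuclei of stromal and epithelial cells and signals, once released, through the receptor ST2 (Il1rl1) with the accessory chain Il1rap. Il1rn encodes the IL-1 receptor antagonist, which occupies the IL-1 receptor without signalling. Lif, Il6 and Il11 encode cytokines that signal through the shared chain gp130 (Il6st) to JAK kinases and STAT3. Csf1 and Csf2 encode macrophage and granulocyte-macrophage growth factors, Tslp encodes an epithelial and stromal cytokine of type 2 immunity, and Ptgs2 encodes COX-2, the inducible enzyme that commits arachidonic acid to prostaglandins.

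Whole reads recovered from the deposited values gave 45448249 reads in H3.1 K36M, 53199065 in H3.1 K36R and 61139941 to 68020958 in the 6 H3.3 libraries. Values below are normalised reads, which are reads divided by the size factor of the library, and differences are on the deposited log2 scale, on which genes with few reads differ by less than their logged reads do. Of the 10 mesenchymal markers, which include Col1a1, Pdgfra and Prrx1, all passed the filter on low values, with summed levels of 528537 to 711417 normalised reads in K36M and K36I lines and 712219 to 984481 in the others. Of 12 leukocyte markers 2 passed, Lyz2 and Cd68, and their list summed to 599.8 to 948 normalised reads in K36M and K36I lines, against 317 to 522 in the others. Ptprc, which marks leukocytes, had at most 7.89 normalised reads in any library and Cd3e none, and of 6 mast cell markers 4 (Kit, Mcpt4, Fcer1a and Ms4a2) had no reads in any library. Endothelial markers summed to 212 to 259 against 117 to 328, and epithelial markers, of which Cdh1 passed, to 712 to 1159.5 against 300.1 to 795. The part of these markers in the results below was not tested.

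Promoter windows of 250 bases before the start site were found in the RefSeq table (GRCm38.p6) for 9 of the 10 genes, 14 windows in all, and not for Tslp. Of the windows shown, those of Il6, Csf1, Lif and Il1rn carry a match to a motif of a factor family known to act on cytokine genes. That of Il33 carries TATA box letters alone. The windows shown cover genes that differed in both directions. They are written 5′ to 3′ on the strand of the gene, ending next to the start site, with the motif matches in capitals.

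Il6, chr5:30012864-30013113, plus strand: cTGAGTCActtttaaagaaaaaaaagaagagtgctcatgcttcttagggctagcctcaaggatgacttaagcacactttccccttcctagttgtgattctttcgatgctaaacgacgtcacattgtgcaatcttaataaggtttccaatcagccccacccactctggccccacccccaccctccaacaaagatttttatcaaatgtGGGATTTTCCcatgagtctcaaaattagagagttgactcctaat

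Csf1, chr3:107760470-107760719, minus strand: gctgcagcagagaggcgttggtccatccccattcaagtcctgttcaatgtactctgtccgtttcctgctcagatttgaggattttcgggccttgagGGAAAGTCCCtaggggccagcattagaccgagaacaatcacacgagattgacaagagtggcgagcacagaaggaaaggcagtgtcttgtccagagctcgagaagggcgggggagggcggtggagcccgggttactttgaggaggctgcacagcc

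Lif, chr11:4257318-4257567, plus strand: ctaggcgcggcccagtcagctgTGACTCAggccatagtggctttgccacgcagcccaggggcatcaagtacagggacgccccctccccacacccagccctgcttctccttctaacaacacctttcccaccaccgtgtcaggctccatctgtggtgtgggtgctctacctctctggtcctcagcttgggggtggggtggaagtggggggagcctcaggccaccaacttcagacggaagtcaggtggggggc

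Il1rn, the start farthest upstream, chr2:24336610-24336859, plus strand: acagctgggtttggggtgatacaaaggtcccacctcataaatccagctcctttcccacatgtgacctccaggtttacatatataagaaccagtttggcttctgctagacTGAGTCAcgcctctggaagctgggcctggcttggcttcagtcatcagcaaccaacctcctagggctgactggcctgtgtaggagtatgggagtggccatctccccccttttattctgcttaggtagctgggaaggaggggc

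Il33, the downstream start, chr19:29945540-29945789, plus strand: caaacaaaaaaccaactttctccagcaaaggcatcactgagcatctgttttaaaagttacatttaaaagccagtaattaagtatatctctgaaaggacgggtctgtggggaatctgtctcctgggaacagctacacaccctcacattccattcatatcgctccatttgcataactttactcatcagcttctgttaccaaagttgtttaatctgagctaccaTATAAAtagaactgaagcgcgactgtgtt

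Both strands of every window were searched for AP-1 (TGANTCA), CRE (TGACGTCA), NF-kB, STAT (TTCNNNGAA) and TATA box letters (the last being TATAAA). The NF-kB letters were a narrow form of the kappaB consensus, with a single letter left free. Other forms of it were not searched, so the NF-kB matches and their share of all windows hold for this form alone. NF-kB letters lay in the Il6 window, 44 to 35 bases before the start, and on the opposite strand of the Csf1 window, 154 to 145 bases before it, against 0.356% of all 32851 windows. AP-1 letters, which read alike on both strands, lay in 4 of the 14 windows, against 6.75% of all windows. These were the windows of Lif and Il6, that of the Il1rn start farthest upstream and 1 of 2 for Il11. Both Il33 windows held TATA letters, 29 to 24 bases before the downstream start, against 12.4% of all windows. No window held CRE or STAT letters, which lay in 1.55% and 7.02% of all windows. The windows of Il1rl1, Ptgs2 and Csf2 and the remaining ones of Il1rn and Il11 held no match to any of these motifs. The matches describe these letters alone, and none of them overlapped another. The Lif and Il1rn windows shown, both with AP-1 letters, belong to genes that differed in opposite directions below.

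Il33, its receptor gene and the IL-1 antagonist gene separated the K36M and K36I lines from the rest, the first pair higher and the antagonist lower. Il33 (chromosome 19, 29925114 to 29960718, GRCm38) had 5617 normalised reads in H3.1 K36M, 1441 in H3.3 K36M and 457 in H3.3 K36I, against 17.2 in H3.3 K36A, 62.4 in H3.3 K36L, 44.6 in H3.3 K36R, 185 in H3.1 K36R and 26.0 in H3.3 WT. The 3 K36M and K36I libraries all lay above the other 5, and the H3.1 library was the highest of each class. The means were 2505 ± 2740 (SD, n = 3) and 67.0 ± 68.1 (SD, n = 5), a difference of 3.50 on the log2 scale. The SD among the K36M and K36I lines exceeded their mean, and Il33 covered a 326-fold range over the 8 libraries, the widest of the 9 genes past the filter.

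Il1rl1 (chromosome 1, 40429570 to 40465415) had 7473 normalised reads in H3.1 K36M, 3128 in H3.3 K36M and 3776 in H3.3 K36I, against 1177 in H3.3 K36A, 581 in H3.3 K36L, 289.6 in H3.3 K36R, 874 in H3.1 K36R and 313 in H3.3 WT. The classes did not overlap, with a difference of 2.73, and H3.3 K36A was the highest of the other 5 lines. The gene makes a membrane receptor and a soluble decoy from separate start sites, and values summed over the gene do not tell these apart. Reads of the receptor gene, whichever form they came from, and reads of its ligand gene were both high in the same 3 cultures.

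Il1rn (chromosome 2, 24336853 to 24351494) ran the other way. It had 643 normalised reads in H3.1 K36M, 471 in H3.3 K36M and 239.9 in H3.3 K36I, against 6417 in H3.3 K36A, 1209 in H3.3 K36L, 3677 in H3.3 K36R, 31168 in H3.1 K36R and 5545 in H3.3 WT. All 3 K36M and K36I libraries lay below the others, with a difference of -3.39. The other class was far from even, since H3.3 K36L stood near the K36M lines and H3.1 K36R stood far above H3.3 K36A, the next highest library.

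**Figure D1:**
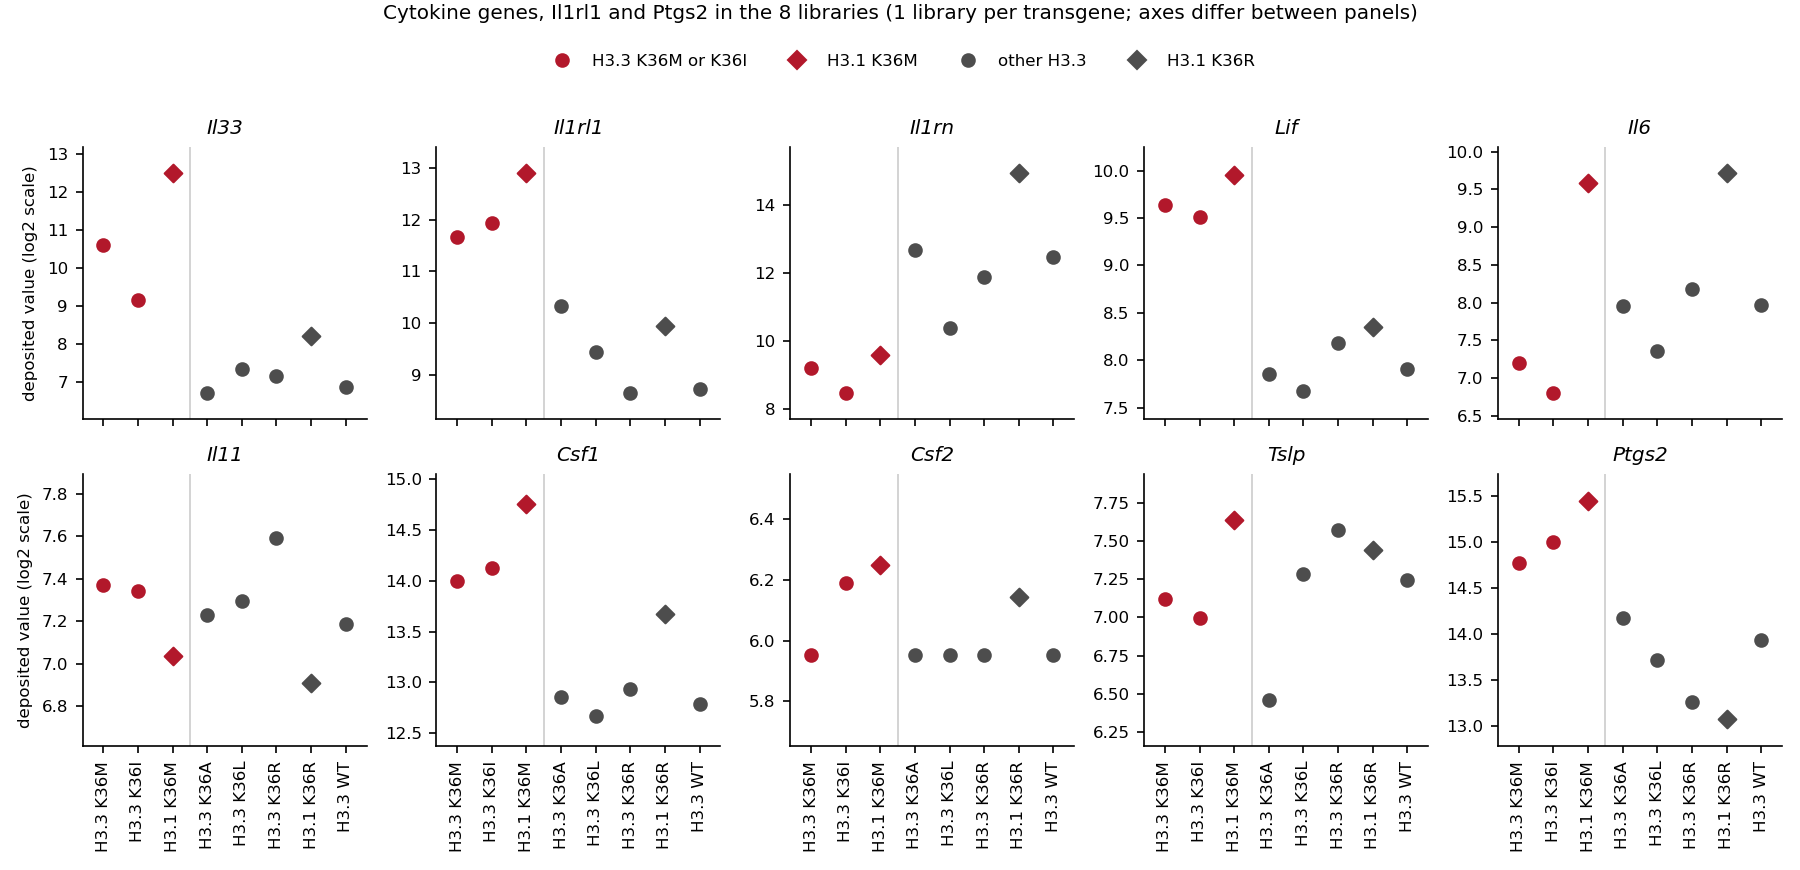
Deposited values (log2 scale, vertical axes, a separate range in each panel) of the 10 genes in each of the 8 libraries, with circles for H3.3, diamonds for H3.1, red for K36M and K36I lines and grey for the others, which a vertical line sets apart. The red points lie above every grey point for Il33, Il1rl1, Lif, Csf1 and Ptgs2 and below every grey point for Il1rn, while both diamonds top the Il6 panel.

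Among the other IL-1 family ligands, receptors and adaptors, 12 of 24 passed the filter and were tested between K36M or K36I lines and the rest with limma, at an adjusted p under 0.05. Irak2, a kinase that carries IL-1 receptor signals, rose by 1.15 (SE 0.20, adjusted p = 0.00709), at 1417 ± 388 normalised reads (SD, n = 3) against 572 ± 146 (SD, n = 5). Il1rap, the accessory chain that both IL-1 and IL-33 receptors need, fell by 1.23 (SE 0.30, adjusted p = 0.0277), at 793 ± 77.8 against 2169 ± 1049. The count for the list was 1 higher and 1 lower of 12, beside 6.45% of all 14215 genes higher and 6.82% lower (48.6% of calls higher, or 58.9% with library medians set equal), and its median was -0.05 against -0.01 over all genes tested. Il1r1, the IL-1 receptor gene, had a difference of -0.35 (SE 0.23) and did not pass. Il1b had no reads in any library and Il1a at most 10.5 normalised reads. The Irak2 call held with each library left out in turn, whereas that of Il1rap was lost without H3.3 K36M, H3.3 K36I, H3.1 K36M, H3.3 K36R or H3.3 WT, with differences of -1.37 to -0.997.

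Of the gp130 cytokine genes, Lif was higher in the K36M and K36I lines, and Il6 and Il11 showed no such split. Lif (chromosome 11, 4257557 to 4272514), the factor that holds mouse embryonic stem cells in the undifferentiated state, had 869 normalised reads in H3.1 K36M, 679 in H3.3 K36M and 609 in H3.3 K36I, against 125 in H3.3 K36A, 99.4 in H3.3 K36L, 179.5 in H3.3 K36R, 213 in H3.1 K36R and 132 in H3.3 WT. Both classes were tight, at 719 ± 134 (SD, n = 3) and 149.7 ± 45.8 (SD, n = 5), and the difference was 1.71. Il6 (chromosome 5, 30013114 to 30019981), a cytokine of the acute phase response, had 647 normalised reads in H3.1 K36M, 49.6 in H3.3 K36M and 22.1 in H3.3 K36I, against 139.8 in H3.3 K36A, 63.3 in H3.3 K36L, 179 in H3.3 K36R, 719 in H3.1 K36R and 142 in H3.3 WT. Its classes overlapped because both H3.1 libraries were high. Among the H3.3 libraries alone, K36M and K36I were the lowest. Il11, a cytokine linked to fibrosis and bone turnover, stayed between 28.4 and 89.3 normalised reads in every library, with means of 54.6 ± 15.5 (SD, n = 3) and 55.0 ± 22.0 (SD, n = 5).

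In the list of other gp130 cytokines, receptors and JAK, STAT and SOCS genes, 20 of 25 were tested, and 5 rose and 2 fell in K36M and K36I lines, beside 6.45% and 6.82% of all genes tested. The IL-6 receptor gene Il6ra rose by 0.63 (SE 0.12, adjusted p = 0.00977), at 403 ± 47.2 (SD, n = 3) against 224 ± 35.9 normalised reads (SD, n = 5). The feedback inhibitor genes Cish (0.99, SE 0.27) and Socs3 (0.60, SE 0.17) and the kinase genes Jak2 (0.72, SE 0.17) and Tyk2 (0.45, SE 0.09) made up the rest of those higher, of which Tyk2, as the fifth, lies beyond the rule for naming. Stat3 fell by 0.53 (SE 0.12, adjusted p = 0.0236), at 5339 ± 961 against 7683 ± 699 normalised reads. The median of the list was 0.02. Il6ra held its call with each library left out in turn, and Tyk2 lost it only without H3.3 K36M. Socs3, also lost in the 6 H3.3 libraries alone (adjusted p = 0.0919), and Cish were called in 1 of those 8 fits each, Jak2 in 2 and Stat3 in 4.

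Csf1 was among the more abundant of the 10 genes and was higher in the K36M and K36I lines, while Csf2 was barely present and Tslp low. Csf1 (chromosome 3, 107741048 to 107760469, minus strand) had 27469 normalised reads in H3.1 K36M, 16211 in H3.3 K36M and 17728 in H3.3 K36I, against 7319 in H3.3 K36A, 6405 in H3.3 K36L, 7712 in H3.3 K36R, 12945 in H3.1 K36R and 6927 in H3.3 WT. The classes did not overlap and differed by 1.31, and H3.1 K36R stood apart from the other 4 lines of its class. Tslp lay between 34.0 and 94.6 normalised reads in K36M and K36I lines and between 7.66, in H3.3 K36A, and 86.4 in the others, so that its classes overlapped.

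Csf2 had 2 reads each in H3.1 K36M and H3.3 K36I, 1 read in H3.1 K36R and none in the other 5 libraries, where 0 reads allow up to 3, or 4.68e-06% to 4.91e-06% of a library (counting error only). It was the 1 gene of the 10 under the filter, since its mean lay 0.09 over the lowest value and 1 was required, and Tslp and Il11 were the nearest above that line, at 1.27 and 1.29. The exons of Csf2 overlap those of an antisense gene.

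Of 24 other genes for colony-stimulating factors, short-chain cytokines and their receptors, 12 were tested. Il4ra, the IL-4 receptor chain gene, rose by 0.87 (SE 0.20, adjusted p = 0.0213) in K36M and K36I lines, and Il13ra1, its partner for IL-13, fell by 1.43 (SE 0.32, adjusted p = 0.0206), at 52.6 ± 27.7 (SD, n = 3) against 309 ± 164 normalised reads (SD, n = 5). The list median was 0.08. Csf1r, the receptor gene for the product of Csf1, did not pass the filter and had at most 61.8 normalised reads. The Il4ra call was lost without H3.3 K36I, H3.1 K36M or H3.3 WT, and that of Il13ra1 without H3.3 K36I or H3.1 K36M and in the 6 H3.3 libraries alone (adjusted p = 0.0509).

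Ptgs2 had the highest median level of the 10 genes per kb of exon over the 8 libraries, and it was higher in all K36M and K36I lines. Of its pathway, the phospholipase gene before it and the other cyclooxygenase gene rose, and a synthase gene after it fell. Ptgs2 (chromosome 1, 150100031 to 150108227) had 44263 normalised reads in H3.1 K36M, 27858 in H3.3 K36M and 32509 in H3.3 K36I, against 18377 in H3.3 K36A, 13331 in H3.3 K36L, 9704 in H3.3 K36R, 8530 in H3.1 K36R and 15472 in H3.3 WT. The classes did not overlap, with means of 34877 ± 8455 (SD, n = 3) and 13083 ± 4060 (SD, n = 5) and a difference of 1.44. The 2 K36R libraries were the lowest of the 8.

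Of 23 other prostaglandin genes 15 were tested, and 3 rose and 3 fell, beside 6.45% and 6.82% of all genes tested. Ptgs1, which encodes the constitutive cyclooxygenase COX-1, rose by 1.61 (SE 0.13, adjusted p = 2.98e-04). It had 27386 normalised reads in H3.1 K36M, 25817 in H3.3 K36M and 25027 in H3.3 K36I, against 7346 to 11245 in the other 5 lines, with both classes far narrower than the gap between them. Pla2g4a, the cytosolic phospholipase gene whose product frees arachidonic acid for both cyclooxygenases, rose by 1.33 (SE 0.18, adjusted p = 0.00246), at 22385 ± 3959 (SD, n = 3) against 8848 ± 1779 normalised reads (SD, n = 5). Slco2a1, a prostaglandin uptake carrier gene, rose by 0.67 (SE 0.11), at 95.1 against 33.1 normalised reads.

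Among genes acting after cyclooxygenase, those for a synthase, a receptor and a receptor partner fell. Ptgis, which encodes prostacyclin synthase, fell by 1.15 (SE 0.25, adjusted p = 0.0171), at 849.7 ± 372 (SD, n = 3) against 1978 ± 485 normalised reads (SD, n = 5). Ptger4, a prostaglandin E2 receptor gene, fell by 0.73 (SE 0.16), and Ptgfrn, which encodes a partner protein of the prostaglandin F receptor, fell by 0.96 (SE 0.17). Ptges, the inducible prostaglandin E synthase gene, differed by 0.51 (SE 0.15, adjusted p = 0.0574), and the prostacyclin receptor gene Ptgir by 0.48 (SE 0.14), neither past the test. The list median was 0.17. Ptgs1, Pla2g4a, Slco2a1 and Ptgfrn held their calls with each library left out in turn, whereas Ptgis lost it without H3.3 K36I and in the 6 H3.3 libraries alone (adjusted p = 0.0507), and Ptger4 without H3.3 K36M or H3.3 K36I.

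**Figure D2:**
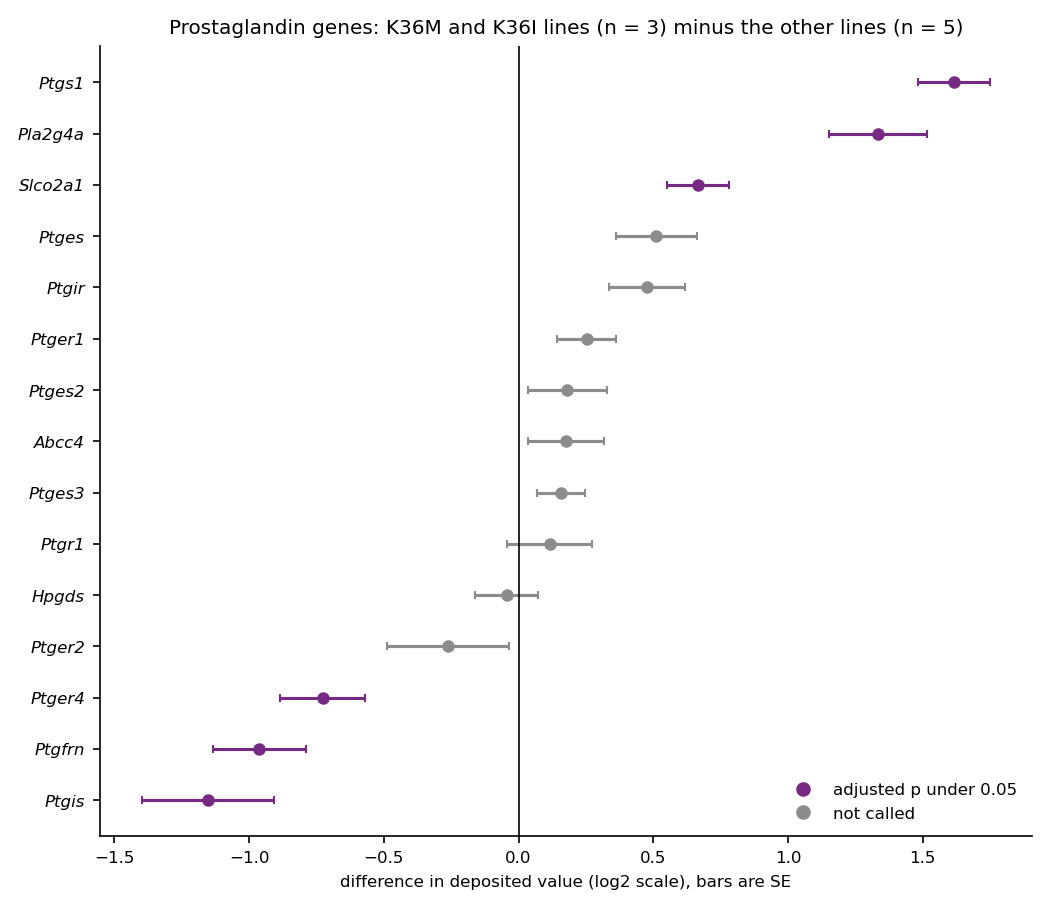
Differences in deposited value (log2 scale, horizontal axis) between K36M and K36I lines (n = 3) and the other lines (n = 5) for the 15 prostaglandin genes tested; points are limma estimates, bars are SE, purple marks an adjusted p under 0.05. Ptgs1 (1.61) and Pla2g4a (1.33) lie farthest to the right and Ptgis (-1.15) farthest to the left.

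Of 13 regulators of cytokine mRNA stability, all tested, 2 fell in K36M and K36I lines and 0 rose (limma; 3 of 13 had an unadjusted p under 0.05). Both encode proteins that bind AU-rich elements and hasten the decay of cytokine mRNAs. Zfp36l1 fell by 1.53 (SE 0.17, adjusted p = 0.00107), at 676 ± 153 (SD, n = 3) against 2173 ± 421 normalised reads (SD, n = 5), with each library left out in turn as well. Zfp36, which encodes tristetraprolin, fell by 0.64 (SE 0.14, adjusted p = 0.0182) but not without H3.3 K36M or H3.3 K36I. Of the 20 NF-kB factors, kinases and feedback genes tested, 0 passed in either direction between these classes (limma; 0 had an unadjusted p under 0.05), although with histone as a covariate, or in the H3.3 libraries alone, 3 rose. Over all 6 lists 10 of 92 tested genes rose and 9 fell, beside 6.45% and 6.82% of all genes tested. The lists were chosen with earlier results of these data known, so their counts are not independent evidence. Of the 18 pathway genes that the rule names, 12 have exons overlapping a gene on the opposite strand, Ptgs1, Il6ra, Stat3 and Zfp36l1 among them, and with strand use not stated their reads cannot be separated.

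Over the 9 genes past the filter, 5 (Il33, Il1rl1, Lif, Csf1 and Ptgs2) lay higher in all K36M and K36I libraries than in any other, beside 10.0% of all genes tested, and 1 (Il1rn) lower, beside 11.5%. The genes were chosen with this contrast known, so nothing is read from that count. Their direction within each histone follows from that choice, and only the sizes are given. Between H3.1 K36M and H3.1 K36R, with 1 library a side and no test, Il33 differed by 4.28, Il1rl1 by 2.93, Ptgs2 by 2.36, Lif by 1.60, Csf1 by 1.08 and Il1rn by -5.36. Within H3.3, K36M and K36I differed from the other 4 lines by 2.87, 2.50, 1.11, 1.67, 1.25 and -3.02 in the same genes. Differences of at least 1 between the pair of H3.1 libraries were seen in these 6 of the 9 genes and in 7.02% of all genes tested. Nothing is read from this count either.

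**Figure D3:**
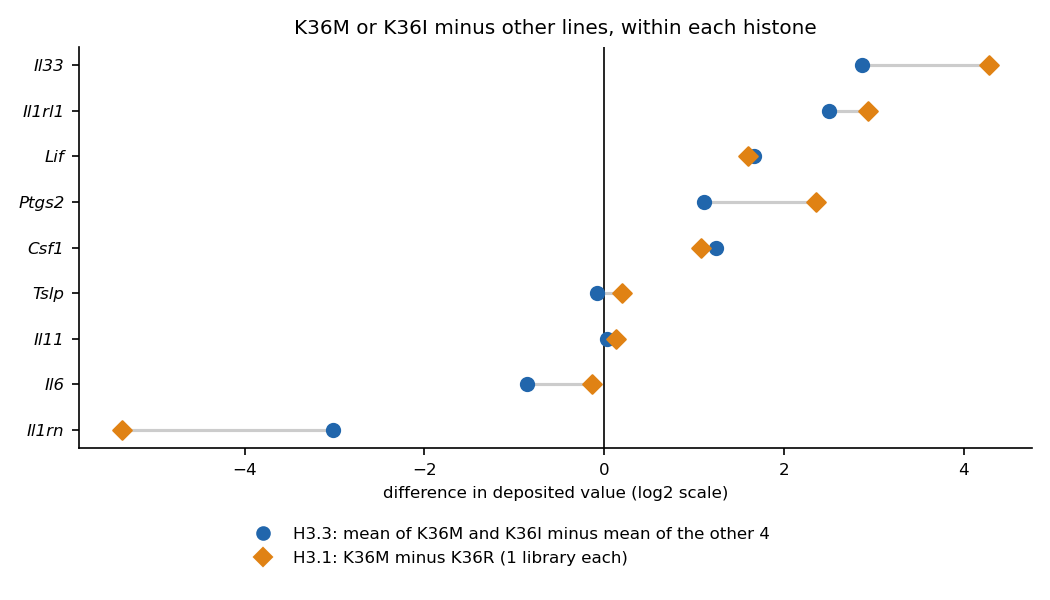
Difference in deposited value (log2 scale, horizontal axis) between K36M or K36I and the other lines, within H3.3 (blue circles, 2 libraries against 4) and within H3.1 (orange diamonds, K36M minus K36R, 1 library each), for the 9 genes past the filter. The points of Lif (1.67 and 1.60) and Csf1 (1.25 and 1.08) nearly coincide, whereas those of Il1rn (-3.02 and -5.36) and Il33 (2.87 and 4.28) lie apart, on 1 side of 0.

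The H3.3 substitutions were also set against H3.3 WT singly, with 1 library a side and no test. The genes were chosen with these values known, so nothing is read from the counts below. H3.3 K36M differed from WT by at least 1 in 5 of the 9 genes, beside 8.69% of all genes tested: Il33 (3.74), Il1rl1 (2.92), Lif (1.73), Csf1 (1.21) and Il1rn (-3.27). H3.3 K36I did so in 7, beside 7.63%, with Ptgs2 (1.07) and Il6 (-1.17) besides those 5. The remaining substitutions had 1 such gene at most. H3.3 K36A differed from WT in Il1rl1 alone (1.60), beside 2.08% of all genes, and H3.3 K36L in Il1rn alone (-2.09), beside 1.03%. H3.3 K36R differed in none, beside 1.76%, and its largest difference of either sign was in Ptgs2, at -0.67. K36L and K36A therefore each shared with K36M the direction of a single large difference.

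The H3.1 lines were compared with the H3.3 lines in all 8 libraries, with line class (K36M or K36I against the rest) as a term. The set was proposed with values of all 8 libraries known, so these tests are not independent evidence for its members. Il6, Csf1 and Il33 rose in the H3.1 lines. Il6 had 719 normalised reads in H3.1 K36R and 647 in H3.1 K36M, against a lowest value of 22.1, a median of 102 and a highest of 179 in the 6 H3.3 libraries, so the groups did not overlap. The difference was 2.18 (SE 0.25, limma adjusted p = 0.00407). Csf1 rose by 0.78 (SE 0.09, adjusted p = 0.00375), and each H3.1 line exceeded the H3.3 line with the same substitution by a near-equal amount, 0.76 for K36M and 0.74 for K36R. Il33 rose by 1.83 (SE 0.42, adjusted p = 0.0351), but not without H3.1 K36M (1.19, adjusted p = 0.245), H3.3 K36A (1.80, adjusted p = 0.0596) or H3.3 WT (1.83, adjusted p = 0.0641), nor with array weights (1.86, adjusted p = 0.0959).

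Il1rn had the next largest difference, 2.02 (SE 0.69, adjusted p = 0.0950), and did not pass. Its H3.1 values were far apart, 31168 normalised reads in H3.1 K36R and 643 in H3.1 K36M. Il1rl1 (0.86, SE 0.41), Tslp (0.43, SE 0.26), Lif (0.41, SE 0.14), Ptgs2 (-0.13, SE 0.30) and Il11 (-0.37, SE 0.13) did not pass either, though Il1rl1 (1.05) did without H3.3 K36A and Lif (0.46) without H3.3 K36R. The count was 3 of 9 genes higher, beside 5.65% of all genes tested higher and 5.37% lower, and nothing is read from it. With the 4 K36M and K36R libraries alone, where each H3.1 line is paired with the H3.3 line of the same substitution, none of the 3 passed (adjusted p = 0.119 for Il6, 0.184 for Csf1 and 0.169 for Il33), at differences of 1.96, 0.75 and 1.47. The fit of these 4 libraries called 12 of all 14215 genes, so the lack of a call in it decides little. Both H3.1 libraries were also the shallowest, and the part of depth was not tested.

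Genes around NF-kB, a transcription factor family that drives many cytokine genes and its own inhibitors, were higher in the same H3.1 lines. Of 20 tested, 11 rose, beside the 5.65% over all genes, and the list median was 0.74 against 0.00 over all genes tested. The list was chosen with earlier results of these data known, so its count and median are not independent evidence. The genes named from this list were picked after their values were seen. Nfkbia, which encodes the inhibitor that NF-kB itself induces, rose by 1.58 (SE 0.13, adjusted p = 0.00142), with 4800 and 5288 normalised reads in H3.1 K36M and H3.1 K36R against 1219 to 2201 in the H3.3 libraries. Relb rose by 1.34 (SE 0.11), with 986 and 1120 against 307 to 403, and Bcl3 by 1.44 (SE 0.13), with 149.8 and 187 against 10.4 to 30.2. In each of these the pair of H3.1 libraries stood above all 6 H3.3 libraries. For Bcl3 all 6 H3.3 values lay under the level that the filter on low values requires of a mean. Bcl3 was therefore tested only because its H3.1 values were high, so its place among the 11 is weak evidence for this contrast.

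Nfkb2 (0.98, SE 0.10), Nfkbiz (1.18, SE 0.12), Nfkbie (1.08, SE 0.12), Map3k8 (1.35, SE 0.14), Birc3 (0.83, SE 0.10), Traf3 (0.86, SE 0.13), Tnip1 (0.64, SE 0.10) and Nfkb1 (0.42, SE 0.06) made up the rest of the 11. Rela, the gene of the most widely used subunit, stood at 1899 and 1703 normalised reads, against 1543 to 1929 in the H3.3 libraries, and did not pass. With each library left out in turn 8 to 12 of the list rose, 8 of them without H3.1 K36M. Within the 4 K36M and K36R libraries alone 0 passed (limma; 13 of 20 had an unadjusted p under 0.05). That fit called 12 of all 14215 genes, so the lack of a call in it decides little. Exons of Nfkb2 and Bcl3 overlap genes on the opposite strand.

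**Figure D4:**
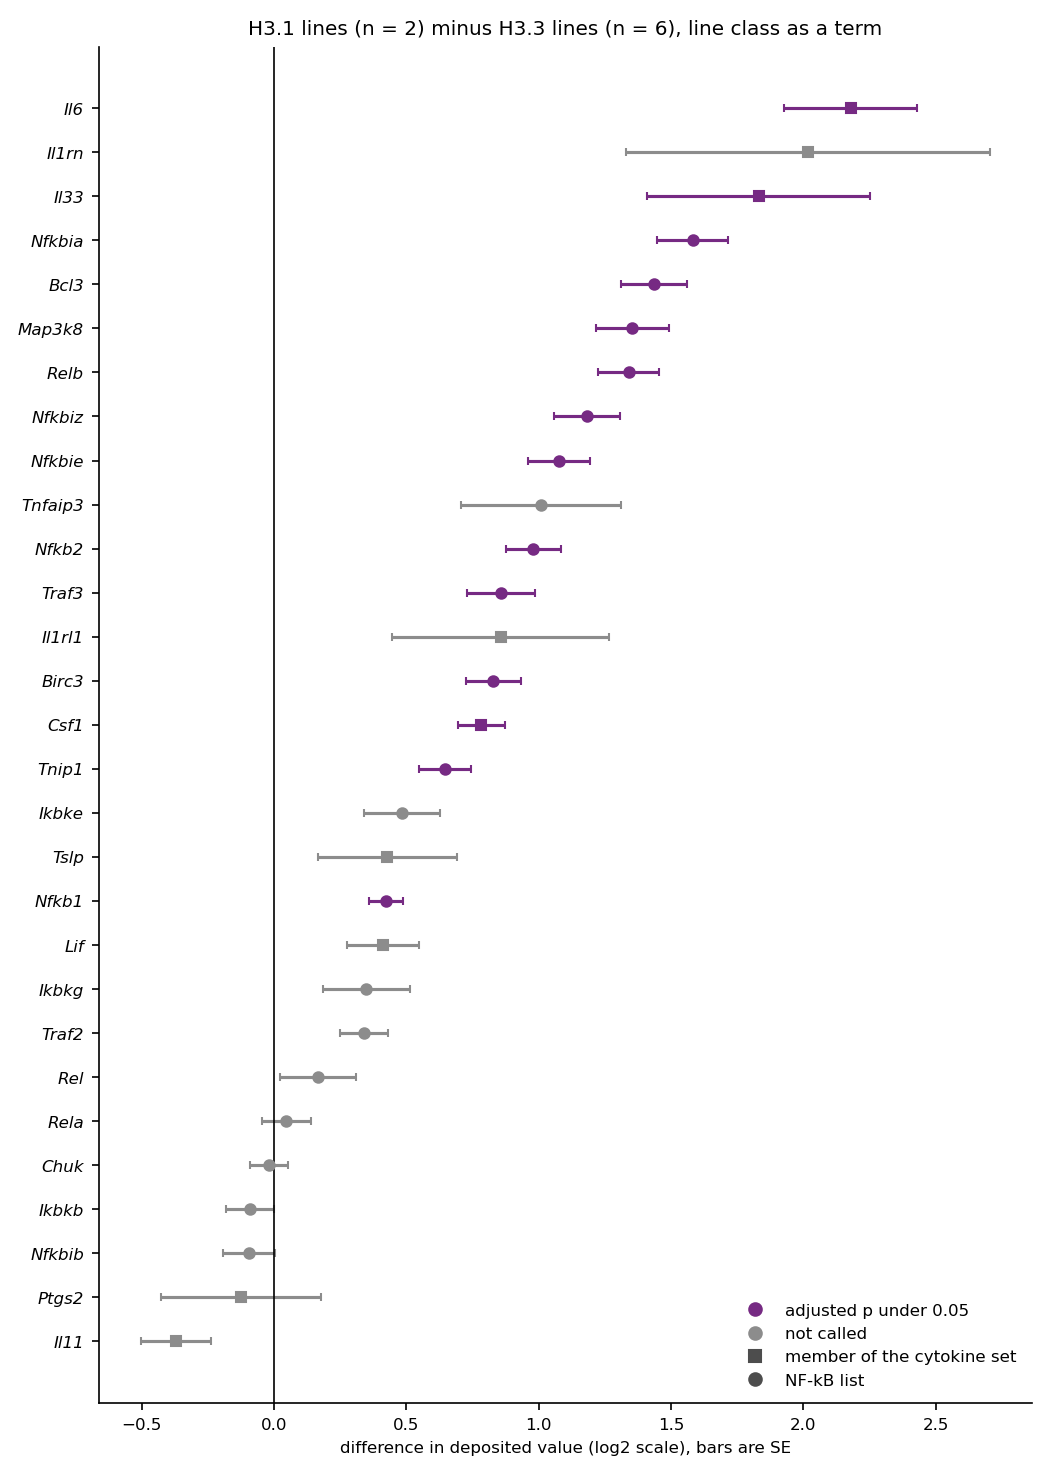
Differences in deposited value (log2 scale, horizontal axis) between H3.1 lines (n = 2) and H3.3 lines (n = 6), with line class as a term, for the 9 cytokine set genes past the filter (squares) and the 20 NF-kB list genes tested (circles); bars are SE and purple marks an adjusted p under 0.05. Il6 lies farthest to the right (2.18), and Nfkbia (1.58) is the highest of the purple NF-kB points.

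The receptor side of the gp130 family followed the same contrast. Of the 20 tested genes of that list 7 rose in the H3.1 lines, beside 5.65% of all genes tested, with a median of 0.15 against 0.00 over all genes. With array weights 4 rose. Il6st, the gp130 gene, rose by 0.99 (SE 0.12, adjusted p = 0.00491), with 29113 and 34628 normalised reads in H3.1 K36M and H3.1 K36R against 12517 to 22587 in the H3.3 libraries. Osmr, the oncostatin M receptor gene, rose by 1.15 (SE 0.13) and Lifr, the receptor gene for the product of Lif, by 1.44 (SE 0.36). Il6st lost its call without H3.1 K36M, and Lifr without H3.3 K36I, H3.1 K36M, H3.3 K36A, H3.3 K36L or H3.1 K36R. Without H3.1 K36M 3 of the list rose, and without H3.1 K36R 4. Zc3h12a, which encodes regnase-1, an RNase that degrades Il6 mRNA, rose by 1.80 (SE 0.13, adjusted p = 6.41e-04). The lists of these genes were also chosen with earlier results of these data known, and the genes named here, too, were picked after their values were seen.

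Per kb of exon the genes were ordered by their median level, although the order changed between libraries. Median levels over the 8 libraries were 3695 normalised reads per kb for Ptgs2, 1956 for Csf1, 441 for Il1rn and 149 for Il1rl1. Below these, Il6 (58.1), Lif (45.1), Il33 (42.8), Tslp (41.1) and Il11 (26.2) followed, and Csf2 was at 0. The ranges of all neighbours in this order overlapped except those of Il11 and Csf2. Il33 covered 5.97 to 1946 normalised reads per kb, the highest of these in H3.1 K36M and just under the median of Csf1, and Il1rn reached 5631 in H3.1 K36R, above the median of Ptgs2.

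The genes whose values ran most nearly parallel to each member were sought among 2679 genes past the filter with a range of at least 1, by Pearson r of the log2 values over the 8 libraries, which share 1 normalisation and fall into the 2 line classes. Il33 was most like Arhgap36 (r = 0.99), Slfn2 (0.99) and Gdnf (0.98). Arhgap36 had 722, 151 and 1476 normalised reads in the K36M line of H3.3, the K36I line and the K36M line of H3.1, against 41.5 in H3.1 K36R and no reads in the other 4 lines. The order of those values is that of Il33 wherever reads were found. Lif was most like Cd53 (0.99), Pstpip2 (0.99) and Rgl1 (0.99), and Csf1 most like Il4ra (0.99), Irak2 (0.99) and Tap2 (0.98).

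Among the genes most like Il6 were Stx6 (0.99) and Tln2 (0.98). Stx6 had 3215 and 3422 normalised reads in H3.1 K36M and H3.1 K36R and, as with Il6, its lowest value in H3.3 K36I, at 1378. Il1rl1 was most like Abcb1b (0.99), Plekhn1 (0.97) and Zfp52 (0.97), Ptgs2 most like Ankrd1 (0.97), Dennd2d (0.97) and Slfn3 (0.96), and Il1rn most like March3 (0.98), Mpc2 (0.96) and Map4k3 (0.95). For Tslp these were Ust (0.98), Mpp7 (0.95) and Prkaa2 (0.93), and for Il11, whose own range was the smallest of the 9, Bdnf (0.92), Casd1 (0.90) and Lhfpl4 (0.89).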

How the data were processed

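RNA-seq libraries were made from total RNA (Trizol, Illumina TruSeq), per the labels. Per the submitters' processing notes, the tools were DESeq2 (no version), featureCounts 1.4.4, STAR 2.3.0e and Trimmomatic 0.32 and the build was mm10. Tool settings, annotation and use of strand were not given in the sources used here. Log2 values were deposited by the authors after variance stabilisation of size-factor-scaled reads, which are not length-corrected. Inverting the transformation in its parametric form gave whole reads for 100% of values (within 0.001 reads). Genes whose mean was at least 1 above the lowest value of 5.95 (about 31.0 normalised reads) were kept, 14215 of 31276.

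Two-sided tests used limma (3.58.1, under R 4.3.3) with its trend option and Benjamini-Hochberg adjustment over all 14215 genes at 0.05. K36M and K36I lines (n = 3) were compared with the other lines (n = 5), and H3.1 lines (n = 2) with H3.3 lines (n = 6) with line class as a term; both fits were tested on simulated data. Lines stand in for replicates, so p-values measure the spread between lines, part of which may be technical. The genes and the 6 pathway lists (131 genes, 130 in the table, 92 tested) were chosen with earlier results of these data known. The rule named every member, up to 4 called genes each way per list, and the 3 most parallel genes per member; values of 2 genes that it or the lists hold are not reported here. Coordinates and exon lengths come from GENCODE M21 on GRCm38, promoters from RefSeq on GRCm38.p6.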

Additional observations from a re-analysis of the deposited data

Results flagged for a closer look

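Csf1 in H3.1 K36R, at 12945 normalised reads, stood apart from the other 4 lines without K36M or K36I. On the deposited log2 scale its gap to the nearest of them took 0.737 of the range of the 5 lines. That is above the 95% critical value of 0.71 of Dixon's test for an outlying sample. H3.1 K36R was also the only H3.1 line among these 5, and Csf1 was higher in both H3.1 lines than in the H3.3 lines with the same substitution. Chance flags about 1 group in 20, and 9 genes were looked at. The genes were chosen with values of all 8 libraries known, and the 5 lines carry different transgenes. The flag is therefore a description and not independent evidence.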

How the results depend on the processing

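Of all 14215 genes, 1887 were called between K36M or K36I lines and the rest, and 1567 between H3.1 and H3.3 lines. With array weights these counts were 4074 and 414, and with histone as a covariate the class count was 2959. Leaving out each library in turn gave 1021 to 2084 and 183 to 1934. The 4 K36M and K36R libraries alone gave 12 for H3.1 against H3.3. Of 92 pathway genes, 10 rose and 9 fell between the classes, 16 rose with array weights, 14 fell with histone as a covariate, and 6 to 10 rose and 2 to 10 fell with a library left out. Between H3.1 and H3.3 lines 23 rose and 1 fell, with 13 to 25 and 0 to 3 when a library was left out; 0 fell without the filter, with array weights or without the intensity trend, and 0 passed in the 4 libraries (limma; 29 with an unadjusted p under 0.05). On log2(normalised reads + 1) the class differences of Il33 and Lif were 5.0 and 2.29. The H3.1 minus H3.3 difference of Ptgs2, not called, turned positive without H3.1 K36R (0.55) and in the 4 libraries (0.24). Over left-out libraries it ran from -0.69 to 0.55. With library medians set equal 58.9% of class calls were higher, and without the filter 60.9%, against 48.6% in the reported fit. The causes were not tested. Replicates could not be paired because each transgene had 1 library. The only pairing was by substitution, in the fit of the 4 libraries. Filters and equal medians moved neither count by over 1.5 times, and the H3.3 libraries alone gave 2545 for the classes. Genes near the filter, Tslp, Il11 and Bcl3, rest on few reads.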
